A study of Homo sapiens with 4 samples.

Results

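The HOX-cluster miRNAs are small RNAs whose genes lie among the HOX genes. Of the 2656 human mature miRNAs counted in this study, 9 were described here: hsa-miR-10a-5p, hsa-miR-10a-3p, hsa-miR-10b-5p, hsa-miR-10b-3p, hsa-miR-196a-5p, hsa-miR-196a-3p, hsa-miR-196b-5p, hsa-miR-615-3p and hsa-miR-615-5p, written below without the species prefix. They were chosen by name, after a high count of miR-10a-5p in 1 unexposed library had been seen, and they hold both arms of 4 of the 6 precursor genes. For that reason the values of these miRNAs under the exposed against unexposed contrast are given as a description and not as a test. Small RNA-seq libraries had been made from cortical interneurons, which are inhibitory nerve cells, differentiated in culture from the H1 line of human embryonic stem cells (hESCs), a single established line. The 2 ethanol-exposed libraries came from cultures kept for 7 days in neuronal maturation medium with around 50 to 100 mM ethanol, and the 2 unexposed libraries from cultures kept for 7 days in that medium without ethanol. The study's methods give a last day in ethanol-free medium ahead of collection, and say that treatments were performed in duplicate. Whether the duplicates came from separate differentiations is not stated, so the spread given here is the spread between these cultures.

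HOX genes encode transcription factors that give cells along the body axis their position, and each cluster also holds miRNA genes. In the nervous system HOX genes are used in the hindbrain and spinal cord, while cortical interneurons arise in the ventral forebrain, in front of that territory. A miRNA precursor is a hairpin that is cut into a 5p and a 3p arm. Usually 1 arm is kept by the silencing complex and pairs with target mRNAs through its seed (bases 2 to 8), and the other arm is degraded.

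The 9 miRNAs come from 6 precursor genes in the 4 HOX clusters (GENCODE 29, GRCh38). MIR10A lies on chromosome 17 from 48579838 to 48579947, on the minus strand of the HOXB cluster, in an intron of HOXB3 and overlapping an annotated exon of HOXB4. MIR10B lies on chromosome 2 from 176150303 to 176150412 in the HOXD cluster, in an intron of HOXD3. miR-196a-5p can come from MIR196A1, which spans 48632490 to 48632559 on chromosome 17 within an intron of HOXB7, or from MIR196A2, which spans 53991738 to 53991847 on chromosome 12 within an intron of HOXC6. MIR196B, on chromosome 7 from 27169480 to 27169563, overlaps an annotated exon of HOXA9. MIR615, on chromosome 12 from 54033950 to 54034045, lies in introns of HOXC4 and HOXC5.

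RefSeq (GRCh38.p14) gave a mature sequence for 8 of the 9. They are shown to let the arms and the seeds be compared, written 5′ to 3′ with the seed in capitals, beginning with the arms that were counted most and ending with those that had few or no counts.
miR-10a-5p: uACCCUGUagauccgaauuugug
miR-196a-5p: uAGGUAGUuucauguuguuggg
miR-615-3p: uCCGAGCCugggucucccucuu
miR-10b-3p: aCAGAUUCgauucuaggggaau
miR-196b-5p: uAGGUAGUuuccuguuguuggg
miR-10a-3p: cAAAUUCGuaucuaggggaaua
miR-196a-3p: cGGCAACAagaaacugccugag
miR-615-5p: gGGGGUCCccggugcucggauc
miR-196a-5p and miR-196b-5p share a seed and differ by A12C, counted from the 5′ end with the base of miR-196a-5p first. No other pair among these 8 shares a seed. Outside the list, no other miRNA with a RefSeq sequence in the table of counts had the seed of any of them. In the 110 bases of the MIR10A hairpin, with both mature arms in capitals, the 5p arm comes before the loop and the 3p arm after it.
MIR10A: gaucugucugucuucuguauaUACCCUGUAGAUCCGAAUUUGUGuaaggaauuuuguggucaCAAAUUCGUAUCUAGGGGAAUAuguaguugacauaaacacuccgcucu

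The HOX-cluster miRNAs were rare in these neurons. The counts of all 9 added up to 1253 and 1721 in the exposed libraries and to 799 and 1206 in the unexposed libraries, out of library totals between 12100425 and 24858230. That was 0.00564% and 0.00692% of the exposed and 0.00573% and 0.00997% of the unexposed libraries. At least 1 count was found for 6 of the 9. miR-10a-3p, miR-196a-3p and miR-615-5p had 0 counts in all 4 libraries, which allows up to between 0.121 and 0.248 CPM (counts scaled to the same library total) in a library, taking 3 counts as the upper limit of a count of 0. These limits, like the intervals below, cover counting error only, because the reads carry no molecular identifiers. The filter on low counts, which kept 863 miRNAs of the table, kept 4 of the 9 (miR-10a-5p, miR-10b-5p, miR-196a-5p and miR-615-3p). The levels given below are CPM scaled by TMM, a method that evens out libraries by the bulk of their miRNAs.

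**Figure D1:**
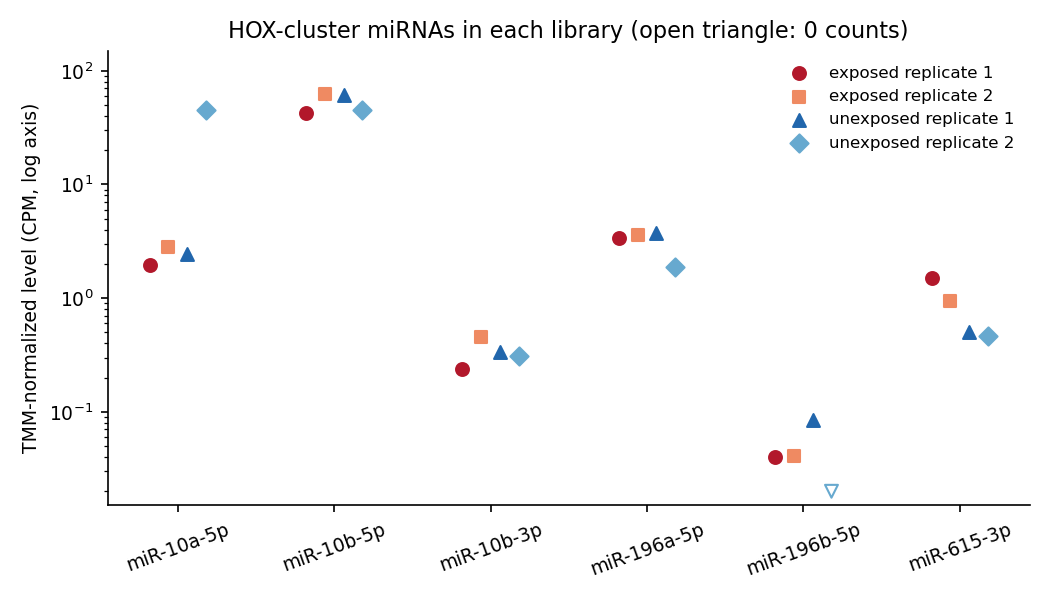
Level of the 6 detected HOX-cluster miRNAs in each library (y axis: TMM-normalized CPM, log axis; 1 point for each library; an open triangle marks 0 counts and has no height of its own). miR-10a-5p lies at 45.6 CPM in unexposed replicate 2 and between 1.94 and 2.79 CPM in the other 3 libraries, while the points of miR-10b-5p lie close together.

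miR-10a-5p, the guide arm of the precursor in the HOXB cluster, had 49 and 68 counts in exposed replicates 1 and 2. It had 29 counts in unexposed replicate 1 and 587 in unexposed replicate 2. The levels were 1.94 and 2.79 CPM in the exposed cells and 2.46 and 45.6 CPM in the unexposed cells. A single library was therefore high, and the TMM level of the other unexposed library lay between those of the exposed libraries. By library size only, unexposed replicate 1 was below both exposed libraries, at 2.08 CPM against 2.205 and 2.736 CPM. Unexposed replicate 2 stood 4.02 log2 units (16.2-fold) above the highest of the other 3 libraries, and by library size only, without TMM, 4.14 log2 units above it. Between the unexposed libraries the log2 level differed by 4.19, the largest difference of the 863 miRNAs tested. The next largest was 3.04, for miR-4647, which had 1 and 13 counts in the unexposed libraries. The median size of that difference over all tested miRNAs was 0.411. The exposed libraries differed by 0.52 for miR-10a-5p, which ranked 186 of 863 in size between that pair.

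**Figure D2:**
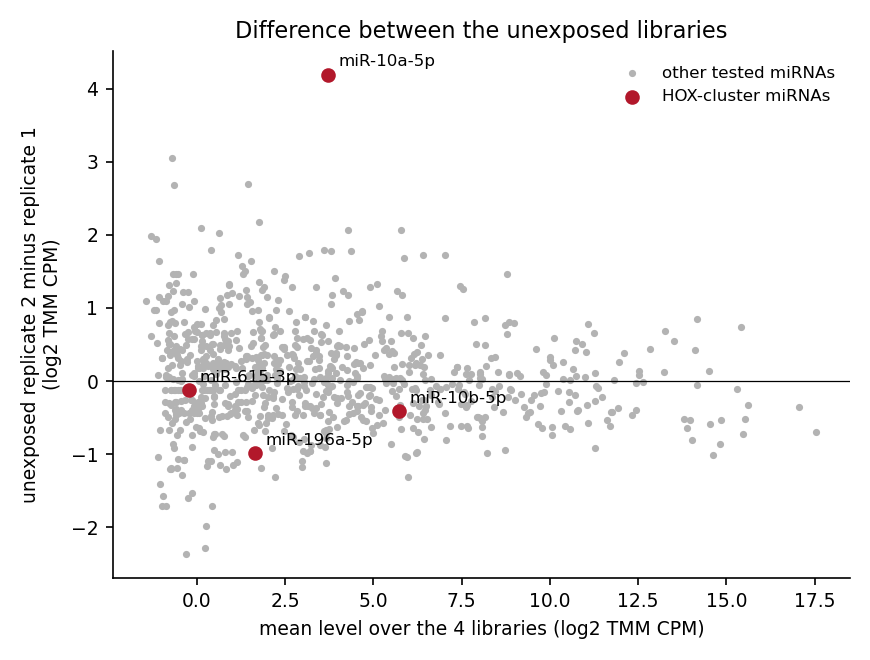
Difference between the 2 unexposed libraries (y axis: log2 TMM CPM of replicate 2 minus replicate 1) against the mean level over the 4 libraries (x axis: log2 TMM CPM), 1 point for each of the 863 tested miRNAs, with the HOX-cluster miRNAs in red. miR-10a-5p lies at 4.19, above every other point, and the other 3 HOX-cluster miRNAs lie below 0.

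miR-10b-5p, the guide arm of the precursor in the HOXD cluster, was the most abundant of the 9 in 3 libraries and close to level with miR-10a-5p in the fourth. It had 1074 and 1530 counts after ethanol and 715 and 585 without it. The level was 42.6 and 62.8 CPM after ethanol and 60.6 and 45.5 CPM without it. The groups overlapped, and their means were 52.7 ± 14.3 CPM (SD, n = 2) and 53.0 ± 10.7 CPM (SD, n = 2). In unexposed replicate 2, where miR-10a-5p was high, miR-10b-5p was lower than in unexposed replicate 1 by 0.41 on the log2 scale.

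The mature 5p arms of the miR-10 genes are known as close paralogs with nearly the same sequence, and how reads that match both were counted is not given in the sources used here. Their ratio does not depend on the scaling of the libraries. For each miR-10a-5p count there were 21.9 and 22.5 miR-10b-5p counts in the exposed libraries and 24.7 in unexposed replicate 1. In unexposed replicate 2 there was 0.997. As a share of the counts of both, miR-10a-5p took 4.36% (95% Wilson interval 3.32 to 5.72%) and 4.26% (3.37 to 5.36%) in the exposed libraries, 3.90% (2.73 to 5.54%) in unexposed replicate 1 and 50.1% (47.2 to 52.9%) in unexposed replicate 2. The first 3 intervals overlapped, and the fourth lay outside them. The levels of both together were 44.5 and 65.6 CPM after ethanol and 63.1 and 91.1 CPM without it. The sum was also highest in unexposed replicate 2.

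**Figure D3:**
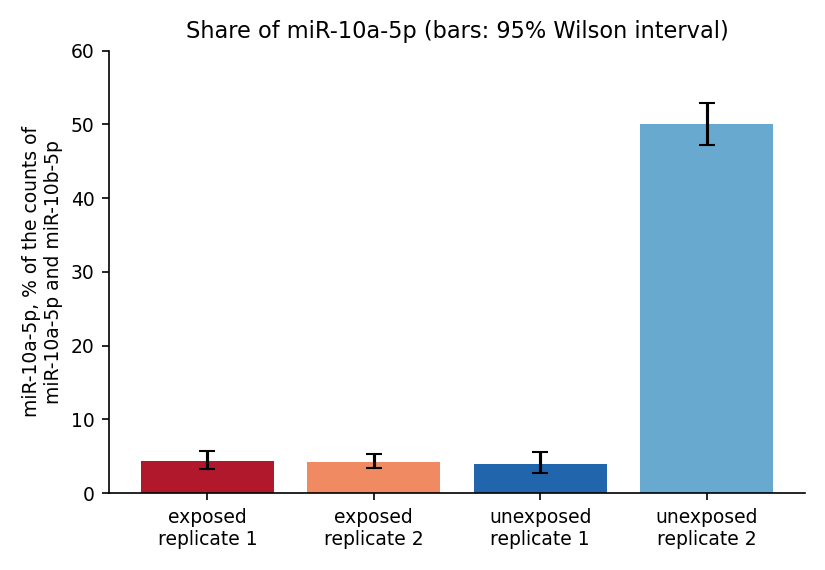
Counts of miR-10a-5p as a percentage of the counts of miR-10a-5p and miR-10b-5p in each library (bars: value in 1 library; error bars: 95% Wilson interval, counting error only). The share is 4.36%, 4.26% and 3.90% in 3 libraries and 50.1% in unexposed replicate 2.

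The 3p arms were read to see whether the high level of miR-10a-5p appeared on the whole MIR10A precursor. miR-10a-3p had 0 counts in each of the 4 libraries, unexposed replicate 2 included. Beside the 587 counts of the 5p arm in that library, a count of 0 allows a 3p share of up to 0.511% by the 3-count limit. The 95% Wilson interval of that share reached 0.650%. The 3p arm of MIR10B gives a measure of how rare such an arm is: miR-10b-3p had 6 and 11 counts after ethanol and 4 and 4 counts without it. Its share of the MIR10B counts was between 0.556% and 0.714% in a library, and 0.636% (95% Wilson interval 0.431 to 0.938%) over all 4, on 25 of 3929 counts. If MIR10A kept that ratio, the 587 counts of miR-10a-5p would go with 3.76 counts of miR-10a-3p, and the 29 to 68 counts of the other libraries with 0.186 to 0.436. A count of 3.76 is above but close to the limit of 3, and MIR10A need not keep the ratio of MIR10B. At this depth the 3p arm could therefore hardly have shown whether the precursor as a whole was high. miR-10b-3p itself, at 0.238 and 0.452 CPM after ethanol and 0.339 and 0.311 CPM without it, was not raised in unexposed replicate 2.

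miR-196a-5p, which is known to direct the cleavage of HOXB8 mRNA, is the guide arm of both MIR196A precursors. It had 85 and 88 counts after ethanol and 44 and 24 counts without it. The levels were 3.37 and 3.62 CPM after ethanol and 3.73 and 1.86 CPM without it. Here, by TMM level, unexposed replicate 2 was the lowest of the 4 libraries, and unexposed replicate 1 lay above both exposed libraries. By library size only the levels were 3.825 and 3.54 CPM after ethanol and 3.16 and 1.98 CPM without it. By that measure the groups did not overlap. The share of all tested miRNAs without overlap was counted by TMM level only, where it was 33.6%. The 3p arms that could tell the source genes apart gave no counts: miR-196a-3p, of MIR196A2, was at 0 in all 4 libraries, and so was miR-196a-1-3p of MIR196A1, which is not among the 9. The counts of miR-196a-5p can therefore not be assigned to either gene. miR-196b-5p, from the HOXA cluster, had 1 count in each exposed library, 1 in unexposed replicate 1 and 0 in unexposed replicate 2. All of these lie under the limit of 3 counts, and no fold was drawn from them.

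MIR615 differs from the other precursors in that its 3p arm was the one counted. miR-615-3p had 38 and 23 counts after ethanol and 6 and 6 counts without it, and miR-615-5p had 0 in all 4. The levels of miR-615-3p were 1.51 and 0.945 CPM after ethanol and 0.509 and 0.466 CPM without it. Both exposed libraries lay above both unexposed libraries, and the exposed pair differed from each other by 0.66 log2 units. Before TMM scaling the 95% Wilson intervals were 1.25 to 2.35 CPM and 0.617 to 1.39 CPM in the exposed libraries and 0.197 to 0.939 CPM and 0.227 to 1.08 CPM in the unexposed libraries, so those of exposed replicate 2 and of each unexposed library overlapped.

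Across the 4 miRNAs tested, exposed and unexposed cells were set against each other in edgeR's quasi-likelihood fit over all 863 miRNAs. The log2 fold change was -3.34 (standard error 1.06) for miR-10a-5p, -0.0085 (standard error 0.29) for miR-10b-5p, 0.33 (standard error 0.38) for miR-196a-5p and 1.32 (standard error 0.46) for miR-615-3p. By the thresholds of the study, more than a 2-fold difference with an unadjusted P under 0.05, 2 of the 4 were called, miR-10a-5p lower and miR-615-3p higher in exposed cells. The study's own list for these cells at these thresholds holds neither of them. miR-615-3p passed the low-count filter through the exposed libraries alone, at 1.71 and 0.925 CPM before TMM scaling, against 0.430 and 0.496 CPM unexposed. Its call, its lack of overlap and its part in the median are therefore a description only. In limma-voom the log2 fold change of miR-10a-5p was -2.20. Over all tested miRNAs 2.32% were called, 1.04% lower and 1.27% higher, and 4.52% had an unadjusted P under 0.05. Since the list was drawn up with this contrast known, nothing is read from that count. None of the 4 had an adjusted p under 0.05 in edgeR (0 of 4, with 2 at an unadjusted P under 0.05), limma-voom or DESeq2 (0 of 4 each, with 1 at an unadjusted P under 0.05 in each), and edgeR's adjusted p values were between 0.922 and 0.990. By TMM level the groups did not overlap for miR-615-3p alone of the 4, and for 33.6% of all miRNAs tested (18.3% higher and 15.3% lower in exposed cells). The median log2 fold change of the 4 was 0.159, beside -0.010 over all 863, and its members lay on both sides of 0.

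The changes of the called pair rested on single libraries to different degrees. Without unexposed replicate 2 the log2 fold change of miR-10a-5p was -0.089, and without each of the other 3 libraries it was between -4.27 and -3.11. That of miR-615-3p was between 0.945 and 1.62 with each library left out in turn, and its unadjusted P in edgeR was above 0.05 without exposed replicate 1 and without unexposed replicate 2. The log2 fold change of miR-196a-5p changed sign without unexposed replicate 2, from 0.33 to -0.13. That of miR-10b-5p lay between -0.31 and 0.245 with each library left out in turn.

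**Figure D4:**
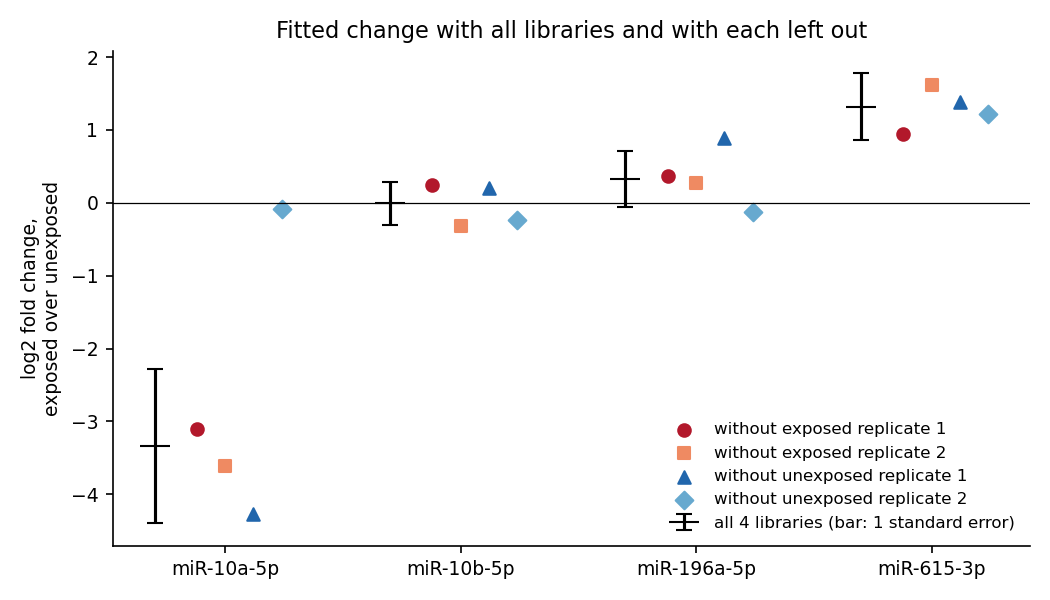
Log2 fold change of exposed over unexposed cells for the 4 tested HOX-cluster miRNAs (y axis), with all 4 libraries (black, bar of 1 standard error) and with each library left out in turn (coloured points). Without unexposed replicate 2 the value of miR-10a-5p moves from -3.34 to -0.089, while miR-615-3p stays between 0.945 and 1.62.

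The levels of the relatives of miR-10 outside the HOX clusters were far higher. miR-99a-5p, miR-99b-5p, miR-100-5p, miR-125a-5p and miR-125b-5p belong to the same old miRNA family, and miR-99a-5p is shown here for its likeness to miR-10a-5p.
miR-99a-5p: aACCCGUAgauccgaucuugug
It shares a run of 10 bases, guagauccga, with miR-10a-5p but not the seed. Its level was 51240 and 36930 CPM after ethanol and 38450 and 35820 CPM without it. For each miR-10a-5p count there were between 13220 and 26370 miR-99a-5p counts in 3 libraries and 785 in unexposed replicate 2. The log2 fold changes of the 5 relatives lay between -0.22 (miR-99b-5p, standard error 0.26) and 0.27 (miR-125b-5p, standard error 0.33). None was called by edgeR, limma-voom or DESeq2 (0 of 5 in each, and 0 of 5 at an unadjusted P under 0.05), and edgeR's adjusted p values were between 0.945 and 0.983. Unexposed replicate 2 was the highest library for miR-99b-5p, at 21930 CPM against 16310 to 16550 CPM in the other 3, and the lowest for miR-99a-5p, miR-125a-5p and miR-125b-5p.

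The HOX clusters hold 4 further mature miRNAs of the table, miR-196a-1-3p, miR-196b-3p, miR-3185 and miR-7704. The first 3 had 0 counts in all libraries. miR-7704, whose gene lies in the HOXD cluster as MIR10B does, had 334 and 181 counts after ethanol and 73 and 79 counts without it. Its levels were 13.2 and 7.43 CPM after ethanol and 6.19 and 6.14 CPM without it. As for miR-615-3p, exposed replicate 1 was the highest library and the groups did not overlap. By TMM level the groups did not overlap for 33.6% of all miRNAs tested, with 18.3% higher in exposed cells. The log2 fold change of miR-7704 was 0.75 (standard error 0.35), and edgeR gave an unadjusted P of 0.0679 and an adjusted p of 0.922. Unexposed replicate 2 was thus high for miR-10a-5p alone among the HOX-cluster miRNAs with 3 or more counts in every library.

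As a check on the cells, 49 miRNAs known from neurons and from 8 other kinds of cell or tissue were read in each library. All 8 neuronal miRNAs were present, with miR-124-3p between 2191 and 5405 CPM and miR-9-5p between 157400 and 254000 CPM, and no listed miRNA is specific to cortical interneurons. The summed level of the neuronal list was 299500 and 386300 CPM after ethanol and 480200 and 362200 CPM without it. By TMM level, the summed level in unexposed replicate 2 lay within the range of the other 3 libraries for 5 of the 9 lists, above it for 2 and below it for 2. It was above for the mesenchymal and smooth muscle list (6 of 6 miRNAs detected), at 112 CPM against 108 and 81.5 CPM in the exposed libraries and 104 CPM in the other unexposed library. Of its 6 miRNAs 1 was highest in unexposed replicate 2. miR-143-3p held most of the sum, at 86.9 CPM there against 54.8 to 74.8 CPM in the other 3 libraries, while miR-199a-3p was lowest there, at 21.9 CPM against 23.3 to 31.6 CPM. It was also above for the pluripotent list (5 of 8 detected), at 3.89 CPM against 2.42, 2.92 and 3.48 CPM, with miR-367-3p, miR-371a-3p and miR-373-3p at 0 in every library. It was below for the endothelial list (2 of 2 detected), at 807 CPM against 894 to 1021 CPM. The blood list (3 of 5 detected, with miR-142-3p and miR-223-3p at 0 in every library) was the other one below, but its sum there came from 2 counts, under the limit of 3, against 7 to 18 counts in the other libraries, and no difference is read from it. The muscle, epithelial, liver and glial lists lay within, with 269, 124, 41.8 and 1073 CPM in unexposed replicate 2 against 203 to 433, 115 to 194, 16.6 to 44.3 and 873 to 1084 CPM. By library size only, lists near the edge of the range changed place. The mesenchymal list was then higher in exposed replicate 1 (2713 of 22223060 counts) than in unexposed replicate 2 (1437 of 12100425). The endothelial list then lay within the range, and the liver and glial lists were highest in unexposed replicate 2. The part of any other cell type in the level of miR-10a-5p was not tested. Fewer cells of a type and less RNA per cell cannot be told apart in these bulk libraries.

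The pattern of miR-10a-5p over the 4 libraries was set beside that of every other miRNA tested. With at least 50 counts in unexposed replicate 2, 12 miRNAs stood more than 1 log2 unit above all other libraries there, against 7 in exposed replicate 1, 2 in unexposed replicate 1 and 0 in exposed replicate 2. miR-10a-5p was the 1 miRNA in any library to stand more than 2 log2 units above the rest. After it came miR-4510, with a gap of 1.72 log2 units, at 3.57 and 4.19 CPM after ethanol and 5.17 and 17.1 CPM without it. miR-216b-5p, miR-216a-3p and miR-217-5p, whose genes lie near each other on chromosome 2, had gaps of 1.48, 1.41 and 1.29. miR-543, miR-495-3p and miR-433-3p, from the imprinted miRNA region of chromosome 14, had gaps of 1.36, 1.12 and 1.12. miR-6747-3p (1.29) and miR-7706 (1.14) completed the list. The likeness is the gap alone, over 4 libraries of which 1 is high, and none of the 8 with a RefSeq mature sequence (all but miR-6747-3p) has the seed of miR-10a-5p or a gene in a HOX cluster.

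**Figure D5:**
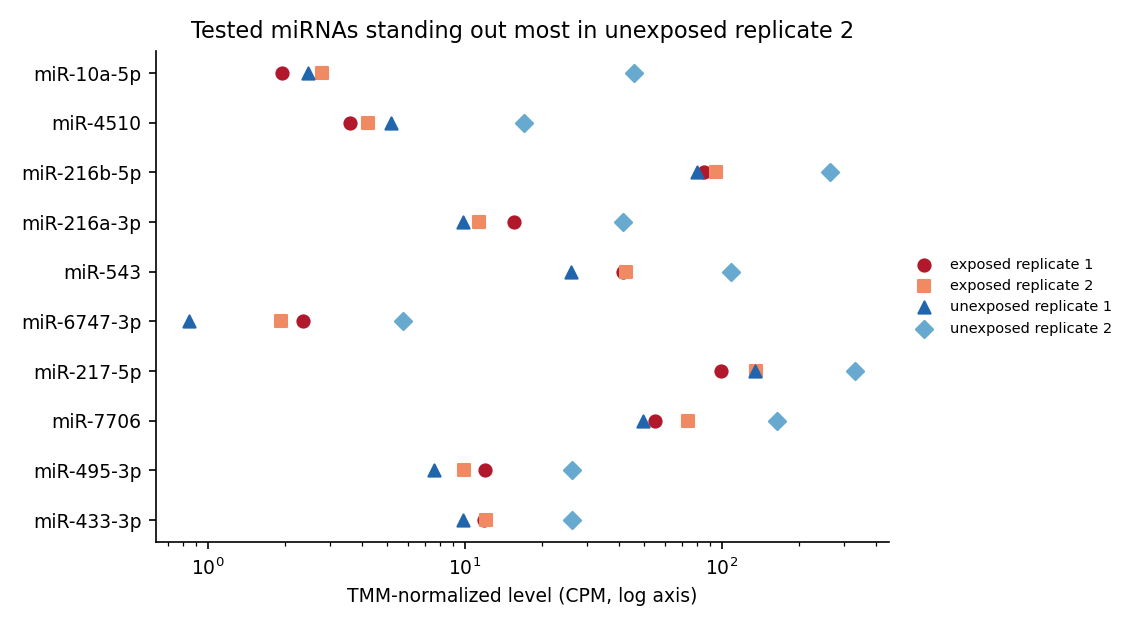
Level of miR-10a-5p and of the 9 miRNAs whose gap between unexposed replicate 2 and the highest other library was next in size (x axis: TMM-normalized CPM, log axis; 1 point for each library). The gap is 16.2-fold for miR-10a-5p and between 2.17-fold and 3.29-fold for the other 9.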

How the data were processed

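Cortical interneurons differentiated from H1 hESCs were profiled by small RNA-seq in 2 ethanol-exposed and 2 unexposed cultures. The libraries were made with a NEBNext kit for small RNA. The authors ran CAP-miRseq on the reads, and the deposited values are raw read counts for 2656 mature miRNAs without normalization. The submitters' processing notes name hg19. Neither the version of CAP-miRseq nor its miRNA release is given in the sources used here. Positions are from GENCODE 29 on GRCh38, matched by gene name.

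Groups and replicate numbers came from the sample titles. From the deposited counts, filterByExpr (minimum count 10, minimum total 15), TMM factors (0.846 to 1.13) and the quasi-likelihood test of edgeR 4.0.16 in R 4.3.3 were applied to the whole table, with Benjamini-Hochberg adjustment over the 863 miRNAs kept. Standard errors come from edgeR's F statistic. As alternatives, DESeq2 1.42.0 and voom from limma 3.58.1 were run, scalings and filters were varied, a replicate block was added, and each library was left out in turn. For log2 levels 0.5 was added to each count. The fit was tested on simulated data. No single library was set high in that simulation, so it says nothing on a case such as miR-10a-5p.

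Totals were between 12100425 and 24858230 counts per library, each exposed library being deeper than each unexposed library, so depth and exposure cannot be told apart. With 2 libraries in a group an exact permutation test cannot give a two-sided p under 0.333. The miRNAs and lists were chosen with earlier results of these data known. Named were the 9 miRNAs, other miRNAs of the HOX clusters, miRNAs sharing a seed, 5 relatives of miR-10, the cell type lists, and the 10 tested miRNAs with at least 50 counts in unexposed replicate 2 and the largest gap over the other 3 libraries. miR-4647 was named after its value was seen.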

Additional observations from a re-analysis of the deposited data

How the results depend on the processing

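The 2 HOX-cluster miRNAs called in edgeR became 1 with limma-voom (miR-615-3p), and 1 with DESeq2, with CPM above 1 in at least 2 libraries and when every library had to hold at least 10 counts (miR-10a-5p each time). The last 2 filters removed miR-615-3p. Calls over all miRNAs moved as well, from 20 of 863 to 15 and 10 of 863 with these tools and to 12 of 726 and 11 of 719 with these filters. With 1 library left out in turn, and the lone library taken to vary like the other group, the count lay between 0 and 2 (between 10 and 44 over all miRNAs), the log2 fold change of miR-10a-5p between -4.27 and -0.089, and the median of the tested HOX-cluster miRNAs between -0.11 and 0.551. That median was also below 0, at -0.0086, with CPM above 1 in at least 2 libraries. The log2 fold change of miR-10b-5p turned positive by library size only (0.141), without any low-count filter (0.0123) and when every library had to hold at least 10 counts (0.0186), and it lay between -0.31 and 0.245 with 1 library left out. That of miR-196a-5p lay between -0.13 and 0.896 when libraries were left out. By library size only, the median of all tested miRNAs moved from -0.010 to 0.145, and with upper quartile scaling to -0.119, so values near 0 have no stable sign. Without any low-count filter, the adjusted p of miR-10a-5p in edgeR was 1.39e-15, and in the fits with all 4 libraries and a filter it was between 0.684 and 1. The list was drawn up after the 1 high library of miR-10a-5p had been seen, so these adjusted p values support nothing. Each fit keeping unexposed replicate 2 with 1 library left out gave a log2 fold change between -4.27 and -3.11, against -0.089 when it was left out.

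In the fit with a replicate block, 2 HOX-cluster miRNAs were called (16 of 863 over all), the log2 fold change of miR-10a-5p was -2.34 and the median was 0.180. The deviations of libraries sharing a number correlated at -0.186. With 2 libraries in each group this value cannot tell whether the numbers pair the samples. With the crossed replicate block, chosen after seeing the data, the number called was also 2 (21 of 863 over all). At this depth the counts of the 3p arms of MIR10A and MIR10B and of miR-196b-5p are too few to compare.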

Other observations

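The MIR217, MIR216A and MIR216B genes gave 3 of the 9 miRNAs that came after miR-10a-5p in the size of the gap of unexposed replicate 2 over the other libraries. Their remaining arms, chosen after those values were seen, were read for the same pattern. miR-216a-5p was at 3.21 and 2.75 CPM after ethanol and 3.73 and 6.92 CPM without it. miR-216b-3p was at 5.23 and 5.01 CPM after ethanol and 4.49 and 11.04 CPM without it. miR-217-3p had 20 and 8 counts after ethanol and 5 and 16 counts without it, or 0.793, 0.329, 0.424 and 1.24 CPM. Unexposed replicate 2 was the highest library for each of these 3 arms by CPM, with gaps over the next library of 0.88, 1.08 and 0.66 log2 units, of which 1 was above 1 log2 unit.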
